A study of Mus musculus with 9 samples.

Results

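Chromatin of the mouse beta cell line betaTC3 was compared with that of the mouse alpha cell line alphaTC1 carrying an empty vector. The comparison rests on 4 of the 9 samples of the study, 2 ChIP-seq libraries per line, chosen by their labels, and on all 17641 windows of the deposited window table. The betaTC3 cells had no treatment, and the alphaTC1 cells had been transduced with an empty vector 5 days earlier, so the line and the transduction cannot be told apart. The other samples are 2 libraries of alphaTC1 cells 5 days after transduction with a short hairpin RNA against Smndc1, and 1 input per group. All 6 ChIP libraries were made with an antibody against histone H3 trimethylated at lysine 9 (H3K9me3). Nothing in the labels says that replicates were separate cultures, and a p-value here measures no more than how far these libraries spread, which may be technical. Each line is a single tumour-derived line, and a difference between them is not a difference between alpha and beta cells in general.

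Alpha cells of the pancreatic islet secrete glucagon when glucose is low, and beta cells secrete insulin when it is high. Both are excitable endocrine cells that share granules, exocytosis machinery and many transcription factors, and differ in their hormone genes, glucose entry, ion channels and receptors. Both lines come from mice that express SV40 T antigen, under the glucagon gene promoter for alphaTC1 and the insulin gene promoter for betaTC3. H3K9me3 is known from silent chromatin and repeats. The signal of these libraries stood instead at gene starts, with 11632 of 17641 windows (65.9%) within 1 kb of one, and it was high at ribosomal protein, splicing and proteasome genes, as described below. It is therefore written as the signal of libraries labelled H3K9me3, and no mark is assigned to it. In bulk chromatin, fewer cells with signal and less signal per cell cannot be told apart.

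Where 2 values are given for a line, they are its replicates 1 and 2. Each value is in scaled reads, the reads of 1 library in a window of 401 bp multiplied by that library's scaling factor. The betaTC3 values are divided by the median change of their chromosome. A change is given in log2 on the scale of scaled reads + 1, as betaTC3 minus empty-vector alphaTC1, with its standard error. A window was called at a Benjamini-Hochberg adjusted p below 0.05 by limma. It is written as separating the lines where it was called and differed by at least 8-fold (3 in log2). Coordinates are those of mm10 (GRCm38), and distances are from the start of the gene that the deposited table assigns. Whether a window is exonic or intronic was not analysed here.

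The start regions of 4 genes show DNA at the windows or next to them. They are the incretin receptor gene Glp1r, separating and higher in betaTC3, and the genes of the neuropeptide Y receptor Npy1r, the potassium channel Kcnh7 and the microtubule kinase Mark1, separating and higher in alphaTC1. Each sequence is the RefSeq promoter of build GRCm38.p6, 250 bases before to 50 after the annotated start, written 5′ to 3′ on the gene's strand. Each overlaps the window described only in part, at Mark1 by bases 184999500 to 184999517 alone. Capitals mark the letters of motifs searched on both strands. These were GGGCGG (SP and KLF factors), GTTGCC (RFX), TGCTGA (MAF), CAGATGG (a NeuroD-type E-box), TAATTA (homeodomain), TGTTTAC (FOXA) and TGACGTCA (CRE), and the HNF1 and NRF1 motifs. A match describes letters and not a bound site.
Glp1r, chr17:30901617-30901916, plus strand: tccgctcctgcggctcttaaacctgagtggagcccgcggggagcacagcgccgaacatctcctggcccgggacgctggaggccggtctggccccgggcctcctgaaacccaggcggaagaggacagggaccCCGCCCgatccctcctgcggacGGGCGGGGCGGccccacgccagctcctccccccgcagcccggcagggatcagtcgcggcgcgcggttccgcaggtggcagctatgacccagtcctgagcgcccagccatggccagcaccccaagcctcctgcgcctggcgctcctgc
Npy1r, chr8:66697172-66697471, plus strand: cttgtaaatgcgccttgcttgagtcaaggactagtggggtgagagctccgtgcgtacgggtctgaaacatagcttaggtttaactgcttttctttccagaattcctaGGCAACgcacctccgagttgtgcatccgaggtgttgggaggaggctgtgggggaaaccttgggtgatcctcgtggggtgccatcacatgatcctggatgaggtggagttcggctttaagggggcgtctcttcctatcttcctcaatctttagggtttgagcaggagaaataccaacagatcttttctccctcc
Kcnh7, chr2:63184238-63184537, minus strand: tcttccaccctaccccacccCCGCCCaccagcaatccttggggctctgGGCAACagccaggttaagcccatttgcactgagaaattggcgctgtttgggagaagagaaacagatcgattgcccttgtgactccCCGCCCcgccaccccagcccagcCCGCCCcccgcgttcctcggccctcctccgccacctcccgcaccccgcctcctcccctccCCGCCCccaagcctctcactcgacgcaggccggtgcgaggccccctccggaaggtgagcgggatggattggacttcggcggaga
Mark1, chr1:184999500-184999799, minus strand: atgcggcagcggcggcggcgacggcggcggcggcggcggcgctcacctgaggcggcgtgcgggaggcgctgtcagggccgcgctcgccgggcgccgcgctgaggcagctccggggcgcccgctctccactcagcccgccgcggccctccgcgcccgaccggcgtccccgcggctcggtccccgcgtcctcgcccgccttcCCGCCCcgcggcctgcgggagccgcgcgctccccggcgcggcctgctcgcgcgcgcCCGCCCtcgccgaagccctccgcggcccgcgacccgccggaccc

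GGGCGG occurred 3 times in the Glp1r promoter, 4 times in that of Kcnh7 and 2 times in that of Mark1, and in 35.7% of all 32851 promoters of the RefSeq table. GTTGCC occurred 1 time each at Npy1r and Kcnh7, against 12.5% of all promoters. The stretches differ in base composition, from 51.7% GC at Npy1r and 67.7% at Kcnh7 to 73.7% at Glp1r and 85.7% at Mark1, where the median promoter had 52.7%. GGGCGG thus occurred in promoters on either side of the comparison, and 3 of the 4 promoters were above the median in GC. The 2 matches at Mark1 lay outside its window.

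Of the 17641 windows, 8318 (47.2%) were called, 4030 higher (22.8%) and 4288 lower (24.3%) in betaTC3. The separating windows were 3395 (19.2%), of which 2114 (12%) were higher and 1281 (7.26%) lower. Within 1 kb of a gene start the shares were smaller: 4245 of 11632 windows were called (36.5%, with 17.8% higher and 18.7% lower) and 1378 separated the lines (11.8%), 927 higher (7.97%) and 451 lower (3.88%). Separating windows made up 28.8% of those 1 to 10 kb from a gene start and 37.5% of those beyond 10 kb. Most gene starts carried signal in both lines, with a median change of 0.02 and a median absolute change of 0.37 in log2.

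**Figure D1:**
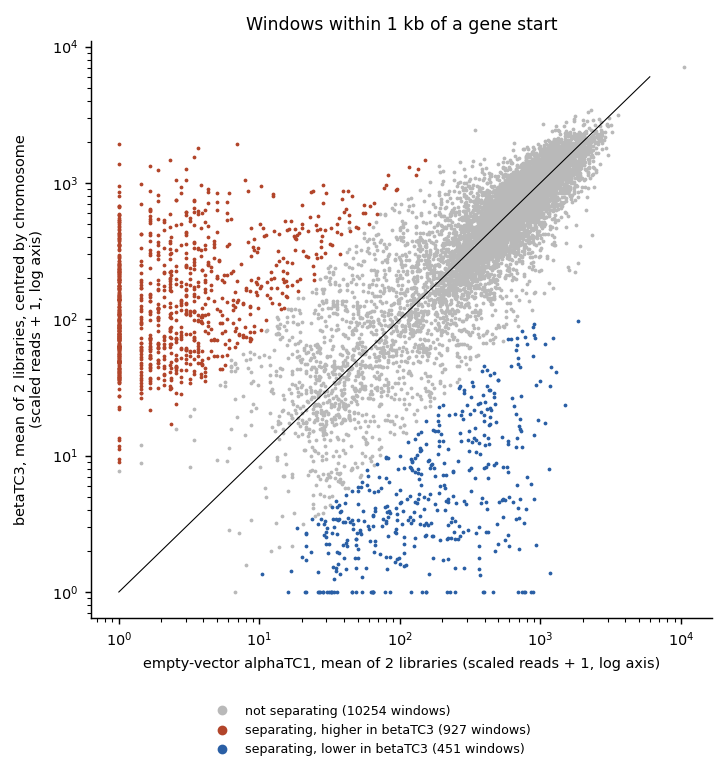
Each point is 1 of the 11632 windows within 1 kb of a gene start, by its mean over 2 empty-vector alphaTC1 libraries (horizontal) and 2 betaTC3 libraries centred by chromosome (vertical), both as scaled reads + 1 on log axes, with equality as a line. The 927 windows higher in betaTC3 reach the left edge, where both alphaTC1 libraries held 0, more often than the 451 lower windows reach the bottom edge.

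Strong windows seldom separated the lines. Among windows within 1 kb whose higher line held 600 scaled reads or more, 2.2% of 6358 did, against 9.80% of 2439 between 300 and 600, 30.4% of 1505 between 100 and 300 and 40.8% of 1330 under 100. For many lists the share of separating windows is therefore given with the list's level, the median over its windows of the mean scaled reads in the higher line. Where no level is given, a share or count is not to be compared between lists. The low line stood at 0 in both libraries in 278 of the 927 higher windows and in 42 of the 451 lower windows. Over the whole table the empty-vector libraries held 0 in 1028 and 926 windows and the betaTC3 libraries in 327 and 362, where the depth inside windows was 5983486 and 9224783 reads with the empty vector and 9924487 and 7198683 in betaTC3. The betaTC3 replicates also differed more, with a mean chi-square per degree of freedom of 14.2 over windows against 1.69 between the empty-vector libraries. The part of these differences in the counts was not tested.

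The windows of largest change contrasted the pancreatic transcription factor Pdx1, the glucose-responsive factor Mlxipl (ChREBP), the homeobox genes Lhx1 and Nkx6-2 and the receptor Glp1r in betaTC3 with the homeobox gene Irx1, the T-box gene Tbx15, the calcium channel subunit Cacna2d3 and the kinases Mark1 and Prkaa2 in alphaTC1. Pdx1 (ENSMUSG00000029644, chromosome 5, 147270320 to 147270720) held 5.30 and 0 scaled reads in the empty-vector libraries and 1799.8 and 1811 in betaTC3, a change of 9.49 ± 0.78 (adjusted p = 1.01e-04 by limma). Mlxipl (ENSMUSG00000005373, chromosome 5, 135106894 to 135107294) held 2.65 and 0 against 1512 and 1432, a change of 9.59 ± 0.58 (adjusted p = 2.76e-05 by limma). Lhx1 (ENSMUSG00000018698, chromosome 11, 84524723 to 84525123) held 0 and 0 against 1366 and 1374, at least 413-fold higher. All 3 were within a few reads of 0 in alphaTC1 and above 1000 scaled reads in both betaTC3 libraries.

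On the alphaTC1 side Irx1 (ENSMUSG00000060969, chromosome 13, 71962784 to 71963184), an Iroquois factor of alpha cells, held 1152 and 1189.6 scaled reads against 0.766 and 0 in betaTC3, a change of -9.78 ± 0.30 (adjusted p = 6.80e-06 by limma). Tbx15 (ENSMUSG00000027868, chromosome 3, 99253969 to 99254369) held 387 and 396 against 0 and 0, at least 145-fold lower in betaTC3. Mark1 (ENSMUSG00000026620, chromosome 1, 184999117 to 184999517) held 793 and 721 against 0 and 0, at least 218-fold lower. Tbx15 and Mark1 had no read in betaTC3. The other windows of largest change on this side were at Cacna2d3, described with the channels, D16Ertd472e, Fam189a1, Nell2, Fmnl2, Hcar1, Prr16, Ppp1r9a and Prkaa2, a catalytic subunit of AMP-activated kinase with 674 and 659.6 against 0 and 4.82 scaled reads. The other windows of largest change on the betaTC3 side were at Gna13, Kcnip1, Rtn4rl1, Nuak2, Cttnbp2, Arsg and Adgrl3. Gna13 and Arsg lie in a run on chromosome 11 described below, so for them a missing stretch of DNA and missing signal cannot be told apart.

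**Figure D2:**
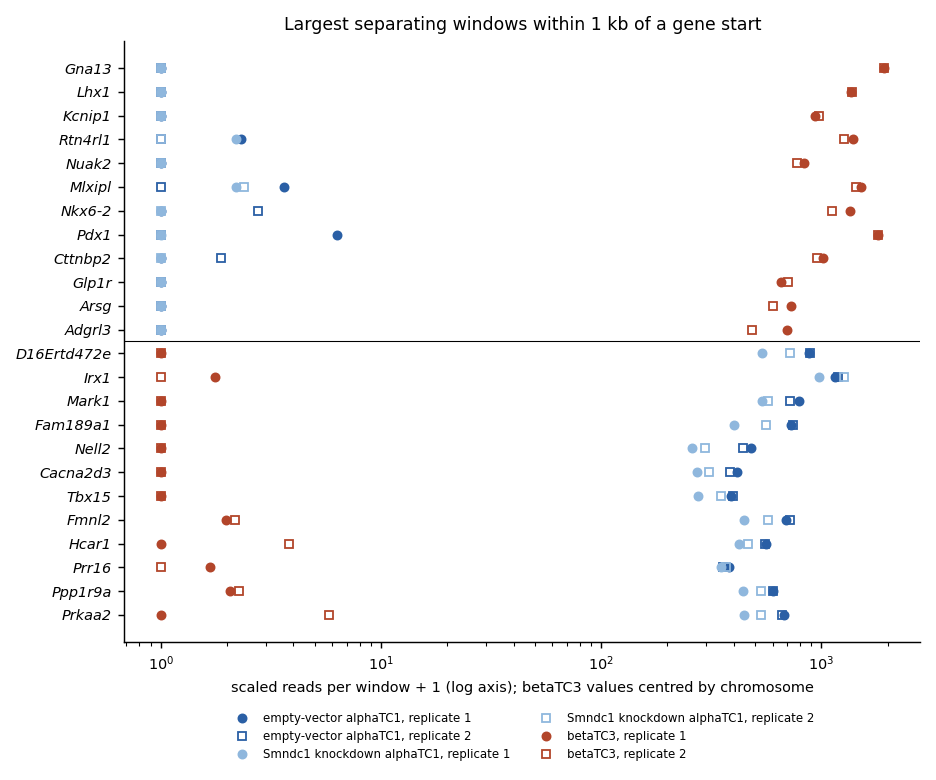
Scaled reads + 1 (log axis) in each of 6 libraries for the 12 windows of largest change in each direction within 1 kb of a gene start, with betaTC3 values centred by chromosome. In the upper 12 the 2 betaTC3 libraries exceed 400 while the 4 alphaTC1 libraries are under 10, and in the lower 12 the order is turned.

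Genes of islet hormones and identity were described by fixed marker lists. Since no mark is assigned to the signal, its direction at these genes does not check the labels of the lines. Ins1, an insulin gene, held 1.32 and 0 scaled reads in the empty-vector libraries and 323 and 286 in betaTC3 (7.64 ± 0.43, adjusted p = 2.15e-05 by limma). Gcg, the glucagon gene, held 340.3 and 352 against 0 and 0 in a window 1729 bp from its start, at least 108-fold lower in betaTC3. Of 10 beta cell markers 8 had a window within 10 kb of their start, 7 of them called higher in betaTC3 at the window nearest to the start, against 22.8% of all windows (Ins1, Pdx1, Mafa, Slc2a2, G6pc2, Slc30a8 and Iapp) and 6 separating. Nkx6-1, a factor of beta cells, held 1068 and 1129 against 1203 and 1117 and was not called (0.08 ± 0.18, adjusted p = 0.755 by limma), and Ins2 and Ucn3 had no window. Slc30a8, the zinc transporter of insulin granules, was higher by 0.59 ± 0.14 (adjusted p = 0.0115 by limma), and not called without empty-vector replicate 1 or 2 (0.109 and 0.0603) or betaTC3 replicate 2 (0.0724). Summed over the list, the beta cell markers held 1607 and 1702 scaled reads in the empty-vector libraries and 7039 and 6677 in betaTC3.

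All 9 alpha cell markers had a window, 7 called lower in betaTC3 (against 24.3% of all windows) and 4 of these separating at the nearest window, among them Gcg, Irx1 and Pou3f4. Pou3f4 (Brn4), a POU factor of alpha cells, held 353 and 341 against 1.54 and 1.84 scaled reads (-7.02 ± 0.22). Irx2 and Slc7a2 were lower by less than 8-fold, at -1.47 ± 0.20 and -0.67 ± 0.18 (adjusted p = 9.92e-04 and 0.0209 by limma). Slc7a2 was not called without any 1 of the 4 libraries compared (adjusted p = 0.0952 to 0.191 by limma). Ttr and Gc went the other way, at 0 and 0 against 110.0 and 104 and 0 and 0 against 35.4 and 44.0, both called higher in betaTC3 (6.75 ± 0.35 and 5.34 ± 0.28). The alpha cell list summed to 4135 and 4240 scaled reads with the empty vector and 1261 and 1277 in betaTC3.

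Markers of other cell types were mostly outside the table: none of 3 endothelial, 3 immune or 3 PP and epsilon cell markers had a window within 10 kb, and 1 of 5 duct and 2 of 6 acinar markers did. Of 3 fibroblast markers Col1a1, a collagen gene, had 2 windows. The nearer one, 1407 bp from the start, held 78.1 and 69.2 against 27.6 and 54.8 scaled reads and was not called (-0.90 ± 0.34, adjusted p = 0.069 by limma). The one at 5217 bp held 9.27 and 7.99 against 67.0 and 111 and was separating and higher in betaTC3 (3.19 ± 0.57, adjusted p = 0.0036 by limma), though not called without betaTC3 replicate 2 (0.0794). Sst, the somatostatin gene of delta cells, held 2.65 and 0 against 139 and 121 scaled reads (6.10 ± 0.59). Sox9, a factor of duct and progenitor cells, held 545 and 601 against 6.57 and 7.83 (-6.13 ± 0.19, adjusted p = 6.80e-06 by limma). The acinar gene Cela1 was lower in betaTC3 (-4.02 ± 0.34) and the acinar factor Bhlha15 higher (2.58 ± 0.47), though not called without betaTC3 replicate 1 or 2 (adjusted p = 0.0817 and 0.0617 by limma). Their part in the comparison was not tested.

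Hormone and neuropeptide genes as a list leaned to betaTC3. Of 10 windows 7 were separating and higher and 1 was separating and lower, 80% against 11.8% of all windows within 1 kb, with a median change of 5.01 in log2 and a median level of 108 scaled reads in the higher line. Npy, neuropeptide Y, was the strongest, at 3.97 and 0.888 against 1611 and 1509.9 scaled reads (8.99 ± 0.58, adjusted p = 3.50e-05 by limma). Iapp, the amyloid peptide stored with insulin, held 7.94 and 1.78 against 738 and 705 (7.18 ± 0.72). The other higher windows were at Ins1, Sst, Tac1, Pthlh and Agt, and Pthlh was not called without betaTC3 replicate 1 or 2 (adjusted p = 0.139 and 0.134 by limma). With a pseudocount of 0.1 in place of 1, neither Pthlh nor Agt was called (adjusted p = 0.0618 and 0.0626 by limma). Gad1, which makes the transmitter GABA and was listed with them, was the lower one, at 140.3 and 134 against 1.95 and 2.33 (-5.46 ± 0.22). Prohormone processing and granin genes had a median level of 682 scaled reads, with 13 of 14 windows at or above 300. Of all windows within 1 kb at that level 4.30% separated. In this list 1 of 14 windows separated the lines (7.14%, against 11.8% of all windows within 1 kb). This was Pcsk1, the convertase of proinsulin, at 1.32 and 2.66 against 602 and 613 (7.70 ± 0.32, adjusted p = 8.76e-06 by limma).

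Glucose handling genes lay on both sides. The list of 25 windows held 4 separating and higher ones, among them G6pc2, Ldhb and Slc2a2, and 2 lower ones (Slc16a1 and Slc2a3), 24% in all at a median level of 626 scaled reads. Slc2a2, the transporter GLUT2, held 0 and 0 against 99.8 and 133, at least 35.0-fold higher. In the other direction Slc16a1, the monocarboxylate transporter MCT1, held 925 and 870.0 against 102 and 81.9 (-3.28 ± 0.20) and Slc2a3, the transporter GLUT3, 70.2 and 86.1 against 7.42 and 10.1 (-3.03 ± 0.25). The glucose transporter genes Slc2a2 and Slc2a3 thus lay on different sides. In the TCA cycle and respiratory chain 1 of 87 windows separated the lines. That window was at Suclg2, a succinyl-CoA ligase subunit (1.32 and 0 against 764 and 483). Suclg2 starts a run of 5 neighbouring higher windows on chromosome 6, with empty-vector means from 0.66 to 15.3 scaled reads. Whether DNA or only signal differed there was not tested.

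Receptors of peptide hormones were called in 22 of 23 windows, 14 higher and 8 lower, where 36.5% of all windows within 1 kb were called, 17.8% higher and 18.7% lower. Of the 23 windows 12 separated the lines (52.2%, against 11.8%), at a median level of 167 scaled reads, 9 of 17 under 300 and 3 of 6 at or above it. Glp1r, the receptor of glucagon-like peptide 1 whose promoter is printed above, held 0 and 0 scaled reads with the empty vector and 656 and 703 in betaTC3, at least 205-fold higher (ENSMUSG00000024027, chromosome 17, 30901762 to 30902162). Galr1 and Galr3, receptors of galanin, held 1.32 and 1.78 against 704 and 790.5 and 0 and 0 against 191 and 218. Gipr, the other incretin receptor, held 0 and 0 against 62.3 and 54.3 (5.89 ± 0.27); it was named after its value was seen. Crhr1, Sstr5, Prokr2, Agtr1a and Pth2r were the remaining higher ones. Pth2r was not called without empty-vector replicate 1 (adjusted p = 0.0718 by limma) or betaTC3 replicate 1 or 2 (0.116 and 0.125), nor with a pseudocount of 0.1 (0.117). Lower in betaTC3 were Npy1r, Mc4r, the melanocortin 4 receptor, and Prokr1. Npy1r (ENSMUSG00000036437, chromosome 8, 66697200 to 66697600) held 242 and 252 against 0 and 0.990, a ratio of 549 (95% counting interval 98.1 to 21736) between the lines. The neuropeptide gene Npy and its receptor gene Npy1r were therefore high in different lines, as were the prokineticin receptors Prokr2 and Prokr1.

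Orphan and adhesion G protein-coupled receptors, a list that also holds the receptors of fatty acids, purines and prostaglandins, leaned to betaTC3: 17 of 46 windows were separating and higher in betaTC3 and 1 was lower, at a median level of 254 scaled reads. Ffar1, the long-chain fatty acid receptor of beta cells, held 0 and 0 against 486 and 538, at least 154-fold higher. Adgrl3, a latrophilin, held 0 and 0 against 698 and 484, at least 178-fold higher. Further receptors of lipids, Ffar4 (0 and 0 against 399.7 and 435) and Gpr119 (2.65 and 3.55 against 643 and 612), were higher too and were named after their values were seen. The lower window was at Adgra2 (188 and 181 against 18.3 and 9.90, -3.68 ± 0.34). Receptors of biogenic amines and acetylcholine gave 4 higher windows (Chrm3, Chrna5, Chrna3 and Htr6) and 1 lower (Adrb1) of 11. Chrna5 was not called by DESeq2 (adjusted p = 0.0636). Chrm3, the muscarinic receptor of the beta cell, held 1.32 and 0.888 against 382 and 287 scaled reads (7.31 ± 0.30).

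Potassium channels, which set the membrane potential and end the action potential, formed the largest list with a majority of separating windows: 19 of 44 were higher and 6 lower in betaTC3 (56.8%), and 13 more were called under 8-fold, so that 38 were called, against 36.5% of all windows within 1 kb. Their median level was 201 scaled reads, and 20 of 30 windows under 300 and 5 of 14 at or above 300 separated, where all windows within 1 kb gave 1000 of 2835 and 378 of 8797. Kcnip1, which encodes an accessory protein of Kv4 channels, held 0 and 0 against 935 and 973 scaled reads, at least 288-fold higher (chromosome 11, 33992623 to 33993023). Kcnb2, a Kv2 delayed rectifier, held 0 and 0 against 476 and 441, at least 138-fold higher. Kcnmb2, a subunit of calcium-activated BK channels, held 0 and 0 against 261 and 296, at least 84.0-fold higher. None of these 3 had a read in an empty-vector library.

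The lower potassium channel windows included the 2-pore channels Kcnk2 and Kcnk3. A different 2-pore channel, Kcnk6, was separating and higher in betaTC3 (0 and 1.78 against 115 and 81.4, 5.87 ± 0.51). Kcnh7, an ERG channel, held 189 and 238 against 0 and 0, at least 66.5-fold lower in betaTC3 (chromosome 2, 63184136 to 63184536). Kcnk2 (TREK-1) held 147 and 195 against 3.17 and 0, a ratio of 102 (95% counting interval 34.7 to 498), and Kcnk3 (TASK-1) 784 and 626 against 18.9 and 12.2 (-5.44 ± 0.23, adjusted p = 9.54e-06 by limma). Kcnj9 and Kcnd3 were separating and lower as well. Of the ERG and EAG genes, the EAG genes Kcnh1 and Kcnh5 were higher and the ERG gene Kcnh7 lower. The ERG genes Kcnh2 and Kcnh6 were not called (-0.92 ± 0.37 and 0.32 ± 0.13, adjusted p = 0.0841 and 0.0860 by limma). The inward rectifiers split, with Kcnj4 and Kcnj6 higher and Kcnj9 lower. So did the Kv4 genes, with Kcnd2 higher and Kcnd3 lower. Kcnj11, the pore of the KATP channel that couples glucose to insulin release, was at 360.1 and 320.5 against 625 and 444 and differed by less than 8-fold (0.63 ± 0.19, adjusted p = 0.0353 by limma). Both names Kcnab3os and Kcnq1ot1 in the list belong to antisense RNAs, whose signal cannot be told apart from that of a neighbouring channel gene.

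**Figure D3:**
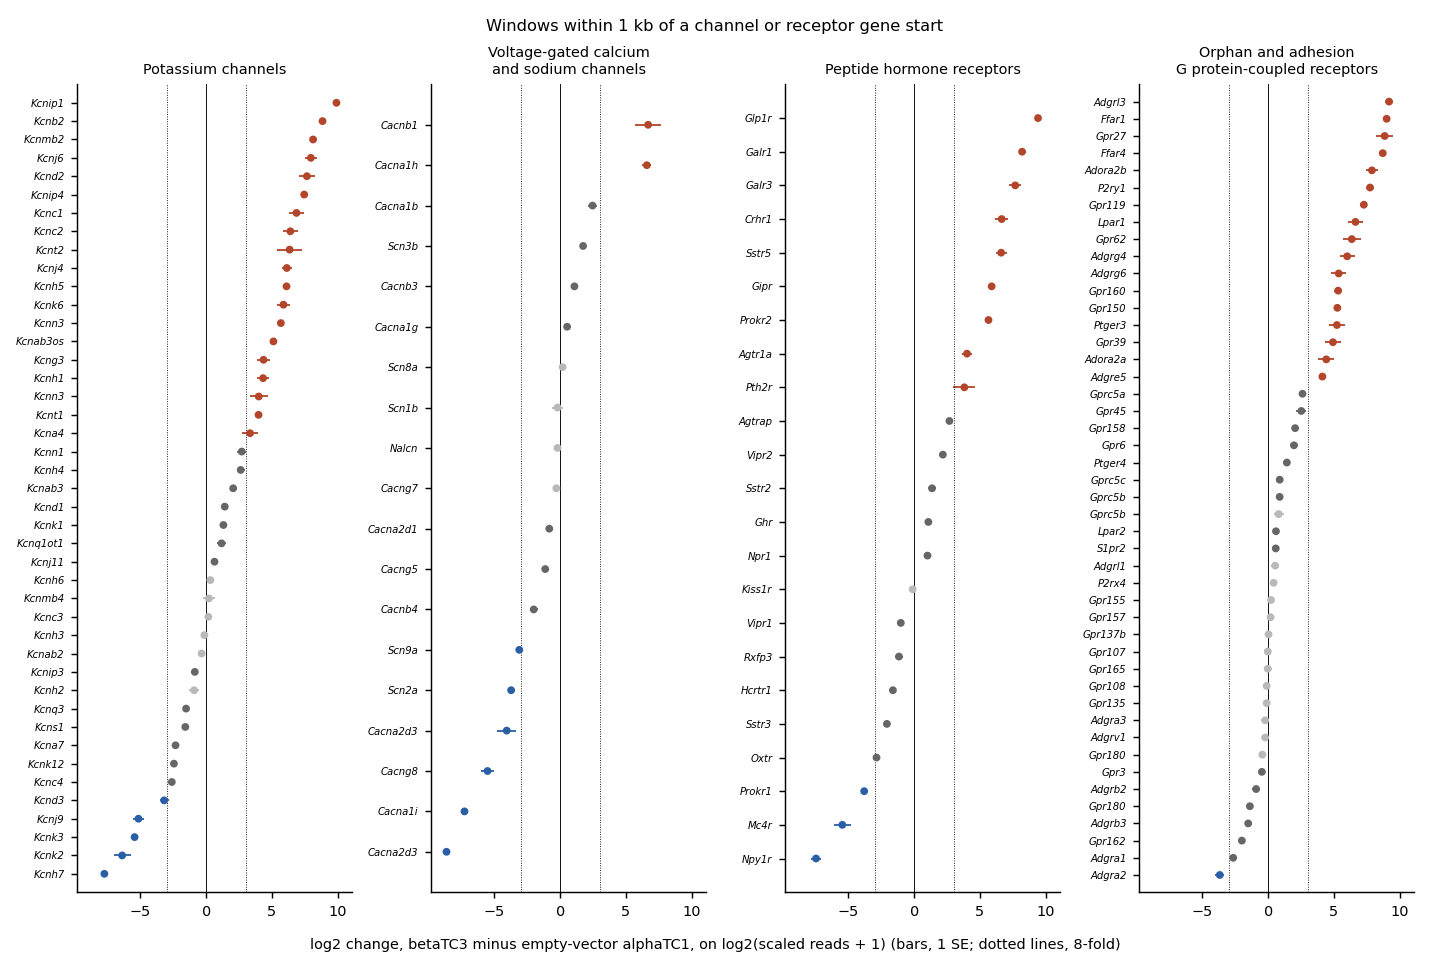
Log2 change (betaTC3 minus empty-vector alphaTC1, on scaled reads + 1) with bars of 1 SE for the windows within 1 kb of the start of a channel or receptor gene in 4 lists, 1 potassium channel window left out, red and blue where separating, dark grey where called under 8-fold and light grey where not called. Potassium channels spread from Kcnh7 to Kcnip1, calcium and sodium channels show 6 blue points and 2 red, and orphan and adhesion receptors 1 blue and 17 red.

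Voltage-gated calcium and sodium channels went mostly the other way, with 2 of 19 windows separating and higher and 6 lower in betaTC3 (42.1%, median level 233.9 scaled reads). Cacna2d3, an auxiliary calcium channel subunit, held 410.4 and 385 against 0 and 0, at least 242-fold lower (chromosome 14, 29722184 to 29722584). Cacna1i, a T-type channel, held 559 and 527 against 3.23 and 1.92 (-7.27 ± 0.24). A different T-type gene, Cacna1h, held 1.32 and 2.66 against 316 and 247 and was higher in betaTC3 (6.59 ± 0.33). The remaining lower windows were at Cacng8, a second site at Cacna2d3, and the sodium channels Scn2a and Scn9a, and the remaining higher one was at Cacnb1, where the adjusted p by limma was 0.0592 without betaTC3 replicate 1 and 0.0541 without replicate 2. Glutamate receptors gave 3 lower windows (2 at Grik3 and 1 at Grin2a) and 1 higher of 12. The GABA and glycine receptor list had 9 windows, of which 2 were separating and higher, Gabbr2 and Glra1, and 1 lower. Gabbr2, a subunit of the GABA-B receptor, held 1.32 and 0 against 664 and 165, far apart between the betaTC3 replicates.

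Transcription factors of development separated in small families. Both POU and Sox genes split: Pou3f2 and Pou2f2 were higher in betaTC3 and Pou3f4, Pou3f1 and Pou4f2 lower, of 7 windows, and Sox13, Sox8 and Sox11 were higher and Sox9 lower, of 5. Sox11 was not called without betaTC3 replicate 1 (adjusted p = 0.0574 by limma). Pou3f2 (Brn2) held 1.32 and 3.55 against 791 and 711 scaled reads (7.85 ± 0.40), the reverse of its relative Pou3f4 above. Of 3 Iroquois windows Irx1 and Irx3 were separating and lower, and of 3 Gata windows Gata4 and Gata6 were. Gata6, an endoderm factor, held 441 and 453 against 17.5 and 23.3 (-4.40 ± 0.21, adjusted p = 1.25e-05 by limma). Nkx6-2 and Nkx1-1 were higher, of 3 Nkx windows, and Lhx1 and Isl2, of 5 LIM homeobox windows. Nkx6-2, a relative of Nkx6-1, held 0 and 1.78 against 1349 and 1118 (9.53 ± 0.49), so the relatives differed where Nkx6-1 itself was not called. Pax4, a factor of beta cell development, held 0 and 0 against 65.7 and 65.7, at least 19.8-fold higher. Families under 10 windows are given by their members, since a share of so few has little meaning.

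Neural basic helix-loop-helix genes, the family of the endocrine factors Neurod1 and Neurog3, gave 5 lower and 2 higher of 20 windows (35.0%, median level 399 scaled reads). Neurod4 held 155 and 151 against 1.57 and 2.81 (-5.62 ± 0.27) and Neurod6 371 and 372 against 9.54 and 8.84 (-5.19 ± 0.17). Neurog2 and Atoh8 were lower as well. The 2 higher ones were Atoh7 and Hes5, and Hes5 lost its call without betaTC3 replicate 1 (adjusted p = 0.138 by limma) and without replicate 2 (0.128), and also with a pseudocount of 0.1 (0.0843). Neurod1 itself was at 673 and 725 against 988 and 943 and differed by less than 8-fold (0.47 ± 0.13). Nuclear receptors gave 5 higher and 2 lower of 28, among them Thrb, the beta form of the thyroid hormone receptor, at least 87.7-fold higher in betaTC3 (0 and 0 against 286 and 296), and Rorb, lower at 798 and 804 against 5.10 and 6.94 (-6.85 ± 0.18). Forkhead genes separated in 1 of 18 windows (Foxd4), Klf and Sp genes in 2 of 18 (Klf2 higher, Klf15 lower), and the 299 windows at Zfp zinc finger genes in 8 higher and 12 lower (6.69%, median level 553 scaled reads), below the 11.8% of all windows.

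Wnt genes leaned to alphaTC1, with 6 lower and 2 higher of 27 windows (29.6%, median level 277 scaled reads). Wnt10a, a ligand, held 908 and 900.2 against 6.33 and 1.26 (-7.80 ± 0.50, adjusted p = 3.59e-05 by limma). Lgr5, a receptor of R-spondins known from stem cells, held 522 and 560.2 against 3.92 and 3.74 (-6.81 ± 0.17). The ligand Wnt5a, the receptor Fzd2 and the inhibitors Dkk2 and Rnf43 were lower too, and Rspo2 and Nkd2 higher. In the Notch and Hedgehog list the ligand Jag1 was higher (1.32 and 2.66 against 399.8 and 306) and the receptor Notch2 lower in betaTC3 (709.6 and 724 against 15.5 and 19.5, -5.29 ± 0.19). Among Hedgehog genes Disp1 was higher and Hhip lower, and 5 of the 12 windows of the list separated. TGF-beta and BMP genes gave 6 higher and 2 lower of 27. Acvr1c (ALK7), an activin receptor, held 3.97 and 0 against 449.6 and 413 and was among the higher ones, and the ligand Bmp7 among the lower ones at 535 and 546 against 9.77 and 4.66 (-6.12 ± 0.31).

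Receptor tyrosine kinases gave 5 higher windows and 1 lower of 13 (46.2%, median level 232 scaled reads). Alk, Ntrk3 (TrkC), Insrr, Egfr and Ddr2 were higher in betaTC3, and Ret, the receptor of glial-derived neurotrophic factors, was lower at 128 and 149 against 15.9 and 3.79 (-3.95 ± 0.56). Alk held 3.97 and 0 against 597 and 627 (8.10 ± 0.70). Downstream of such receptors, the list of Ras regulators and dual-specificity phosphatases gave 11 higher and 1 lower of 37 (32.4%, median level 422 scaled reads). Its exchange factors Rasgrf1 (0 and 0 against 489 and 453) and Rasgrf2 (0 and 0 against 222 and 235) had no read in the empty-vector libraries. Adenylyl cyclases, phosphodiesterases and protein kinase A, a list not confined to cAMP, gave 7 higher and 6 lower of 38 windows. These were 34.2%, at a median level of 745 scaled reads. Adcy8, a calcium-stimulated adenylyl cyclase of beta cells, held 0 and 0.888 against 325 and 345 (7.93 ± 0.37). Pde5a, a phosphodiesterase of cGMP, held 0 and 0 against 206 and 214. Pde3a, a phosphodiesterase that breaks down cAMP, was lower at 1139.9 and 1196 against 29.7 and 32.9 (-5.18 ± 0.15, adjusted p = 6.80e-06 by limma), as were Akap6 (234.3 and 260.1 against 0 and 0) and Pde7b. G protein and Rgs genes gave 5 higher and 2 lower of 30, and 3 higher without Gna13 and Rgs9, which lie in the run on chromosome 11.

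Axon guidance and adhesion genes separated in both directions. In the Slit, Robo and netrin list 6 windows were higher and 2 lower of 13 (61.5%, median level 261 scaled reads), with the ligands Slit1 and Slit2 and the netrin receptors Unc5b (2 windows) and Unc5d on the betaTC3 side beside Robo3, and the netrin receptor Dcc and the ligand Ntn4 on the alphaTC1 side. Unc5b held 2.65 and 0 against 377 and 348 and Dcc 197 and 173 against 12.8 and 5.63 (-4.28 ± 0.37). Without betaTC3 replicate 1 or 2, Robo3 (adjusted p = 0.0728 and 0.0841 by limma) and the weaker Unc5b window (0.0734 and 0.0891) were not called. Cadherins, calcium-dependent adhesion proteins, gave 4 higher and 3 lower of 10, at a median level of 402 scaled reads. Cdh8 held 3.97 and 0 against 1072 and 1043 (8.89 ± 0.69), and Cdh7 was at least 77.4-fold higher. Cdh13 held 487 and 506 against 2.49 and 0 (-8.06 ± 0.54), with Cdh9 and Cdh18 lower as well. All 10 cadherin windows were called, 5 higher and 5 lower, against 36.5% of all windows within 1 kb. Protocadherins gave 9 higher and 4 lower of 27 at a median level of 72.9 scaled reads, the lowest of the 63 lists with at least 10 windows. Their clusters on chromosome 18 hold near-identical neighbours, among which the counting could split reads, and single members are therefore uncertain. Within 1 cluster Pcdhga5 held 0 and 0 against 138 and 138 and Pcdhgb8 123.1 and 145 against 7.42 and 6.43.

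Metalloproteases of the matrix gave 5 higher and 7 lower of 28 (42.9%, median level 158 scaled reads). Adamts20 held 409 and 431 against 1.62 and 1.92 (-7.25 ± 0.23) and Adam19 342 and 386 against 3.94 and 0 (-7.36 ± 0.68) on the lower side. On the higher side Adamtsl4, Adamts1 and Mmp16 were the largest. A window assigned to Adamts1 starts a run of 5 higher windows on chromosome 16, with empty-vector means from 0 to 10.6 scaled reads. Whether DNA or only signal differed there was not tested. Synaptic organisers and leucine-rich repeat adhesion genes gave 9 higher and 4 lower of 37 (35.1%, median level 233 scaled reads), with Ntrk3 and Cntnap5b among the higher and Cbln4 and Lrrc4 among the lower. Exocytosis genes gave 8 higher and 1 lower of 60. Rims3, an active zone protein, held 0 and 0 against 699 and 406, at least 167-fold higher, and Sytl4 (granuphilin), which docks insulin granules, 0 and 1.78 against 719 and 741 (8.78 ± 0.49). The complexins split, with Cplx2 higher and Cplx1 lower (659 and 708 against 61.3 and 82.4, -3.25 ± 0.18). Rab genes separated in 3 of 54 windows, Rab15 and Rab3b higher and Rab27b lower. Rab3b was not called without betaTC3 replicate 1 or 2 (adjusted p = 0.0632 and 0.0607 by limma) or with a pseudocount of 0.1 (0.0867).

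Transporters of the solute carrier families gave 26 higher and 5 lower of 177 (17.5%, median level 611 scaled reads). Slc1a2, a glutamate transporter, held 0 and 0 against 452 and 411, above 400 in each betaTC3 library and with no read in an empty-vector one. Slc16a7, the monocarboxylate transporter MCT2, held 369 and 360.4 against 1.57 and 0 (-7.83 ± 0.43), and with Slc16a1 placed both of these lactate and pyruvate carriers on the alphaTC1 side. Slc38a5, an amino acid transporter known from proliferating alpha cells, held 232 and 250.3 against 0.771 and 2.75 (-6.55 ± 0.40). Slc25a13, a mitochondrial aspartate and glutamate carrier, held 740.1 and 827 against 1.06 and 5.05 (-7.79 ± 0.46, adjusted p = 2.64e-05 by limma).

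Among immune and antigen presentation genes the separating windows were mostly weak and mostly higher in betaTC3. Cytokines, chemokines and their receptors gave 9 higher and 0 lower separating windows of 42 (21.4%, median level 254 scaled reads), by limma, edgeR and DESeq2 alike, and 5 were lower both at an adjusted and at an unadjusted p below 0.05. All 9 lay among the 22 windows under 300 scaled reads (40.9%, against 35.3% of all windows at that level), and none among the 20 at or above 300. Among these 9, Tnfsf12 (0 and 0 against 262 and 249) and Tnfrsf23 (0 and 0 against 149.8 and 151) were at 0 in the empty-vector libraries. The nucleic acid sensor Cgas held 0 and 0 against 551 and 477, at least 155-fold higher, and the interferon and nucleic acid sensing list gave 9 higher and 2 lower of 52 (21.2%, median level 318 scaled reads). With a pseudocount of 0.1 in place of 1, the separating windows at Cxcr4, Tnfrsf11b and Oasl1 were not called (adjusted p = 0.0892, 0.0695 and 0.186 by limma). In the MHC list 14 of 22 windows were called higher and 1 lower, against 17.8% and 18.7% of all windows within 1 kb. Of the 22, 6 separated the lines (27.3%, median level 407 scaled reads), all higher, with 0 lower by edgeR and DESeq2 too and 1 lower at an unadjusted p below 0.05. They were 5 of the 8 windows under 300 scaled reads and 1 of the 14 at or above 300. Psmb8, a subunit of the immunoproteasome, held 74.1 and 84.3 against 955 and 974.7 (3.59 ± 0.16, adjusted p = 9.74e-06 by limma). B2m, the light chain of class I molecules, held 109 and 98.5 against 390.0 and 406 (1.93 ± 0.15) and was named after its value was seen. The other 5 separating windows, at H2-Q2, H2-Q5, H2-Q7, H2-Q10 and H2-Bl, belong to a family of near-identical copies whose reads can be shared. H2-Q2 was not called without betaTC3 replicate 1 or 2 (adjusted p = 0.0701 and 0.0880 by limma) or by DESeq2 (0.0846). Immune cell markers (Ptprc, Cd68 and Cd3e) had no window within 10 kb of their starts.

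Most lists of genes that every cell uses separated in few windows. There were 0 separating windows of 59 at mitochondrial ribosomal proteins, of 57 at translation factors and of 86 at RNA polymerase and general transcription factor genes, by limma, edgeR and DESeq2 alike, while 13, 10 and 20 of them were called by limma under 8-fold (against 36.5% of all windows called) and 17, 15 and 24 had an unadjusted p below 0.05. Cytosolic ribosomal proteins gave 1 of 61 (Rps4l, a retained copy of Rps4x), splicing factors 1 of 103 (Rbm20, which splices muscle genes), proteasome subunits 1 of 39 (Psmb8 above) and cyclins and their kinases 1 of 55 (Cdk15). The median level of these 7 lists ran from 876 to 1097 scaled reads, against 662 over all windows within 1 kb, and 2.2% of all windows above 600 separated. Rbm20 held 0 and 0 against 63.3 and 80.7 and Rps4l 1.32 and 4.44 against 241 and 217. Of further lists of this kind, ubiquitin enzymes gave 2 of 88 windows (2.27%, median level 890 scaled reads), both lower. Chaperones gave 4 of 51 (7.84%, median level 907), all higher, a share above the 6.69% of Zfp genes.

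Of 78 lists of genes 77 had a window within 1 kb and 63 had at least 10. Among the 63 the share of separating windows was above the 11.8% of all windows in 37, the higher windows outnumbered the lower in 46 and the lower the higher in 10, and 40 held separating windows in both directions. All windows within 1 kb show more higher than lower ones as well (7.97% against 3.88%), and a lean of a list to betaTC3 is read against that. The 10 lists with more lower windows include Wnt genes, neural helix-loop-helix genes, calcium and sodium channels, glutamate receptors and metalloproteases. The median log2 change was 1.73 for potassium channels, 1.36 for peptide hormone receptors, 2.63 for receptor tyrosine kinases, 0.87 for orphan and adhesion receptors and 1.29 for MHC genes, against 0.02 over all windows within 1 kb. It was -1.21 for neural helix-loop-helix genes, -1.01 for glutamate receptors, -0.30 for Wnt genes and -0.29 for calcium and sodium channels. In some lists the median and the counts differ in sign. Cadherins (-0.35), Notch and Hedgehog genes (-0.10) and the adenylyl cyclase and phosphodiesterase list (-0.08) hold more higher windows. Metalloproteases (0.17) hold more lower ones. No test of a list was made.

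**Figure D4:**
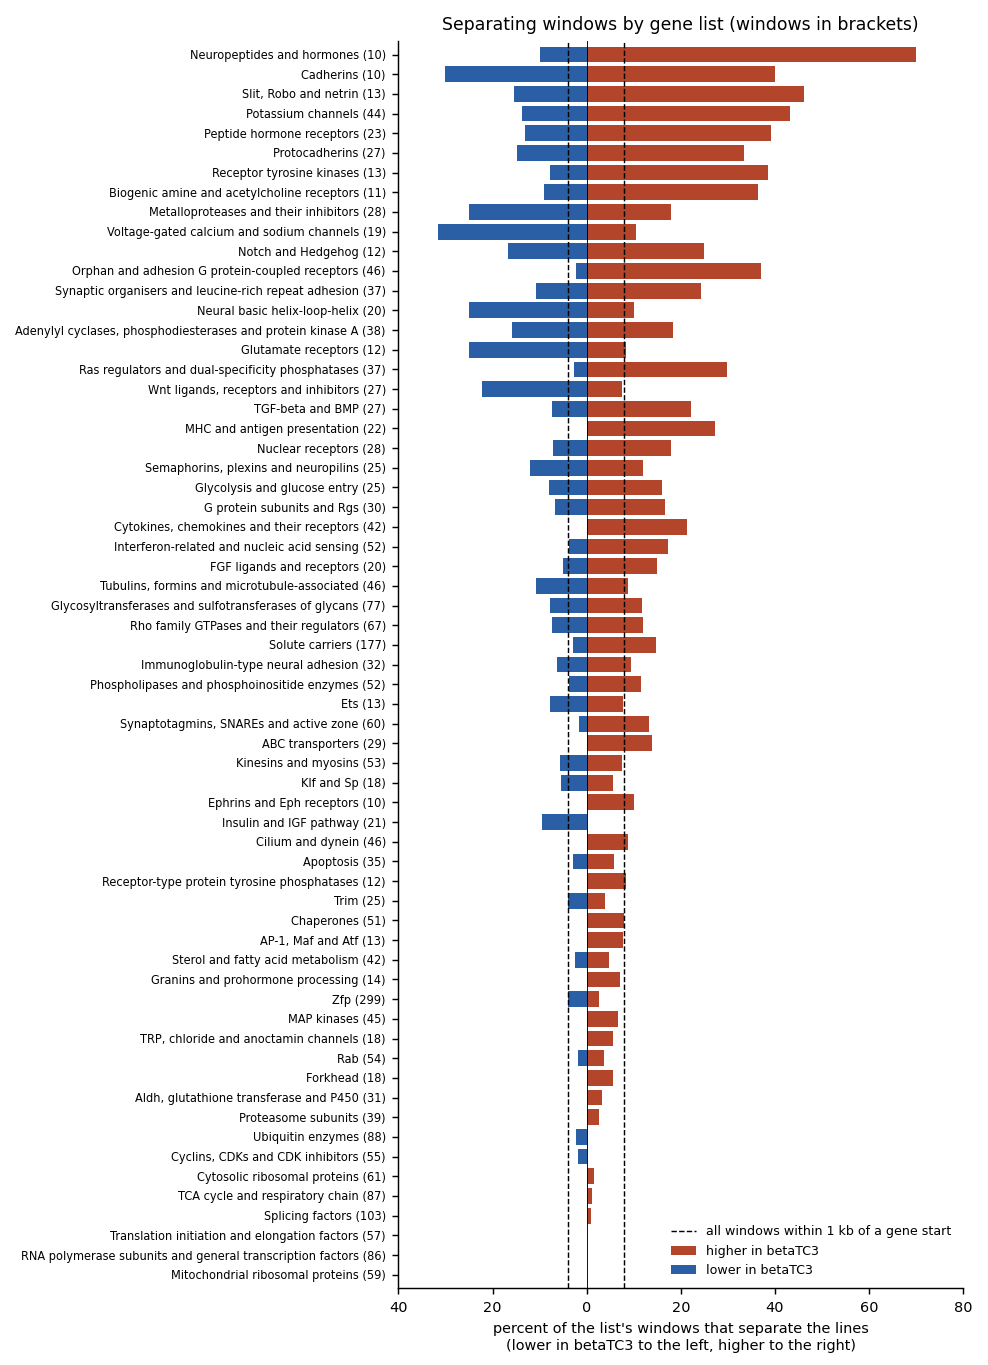
Percent of windows within 1 kb of a gene start that separated the lines in each of 63 gene lists with at least 10 windows (number in brackets), higher in betaTC3 to the right and lower to the left, with the shares of all 11632 windows as dashed lines at 7.97% and 3.88%. Hormones, cadherins, Slit, Robo and netrin genes, potassium channels and peptide hormone receptors stand at the top. Ribosomal, splicing and transcription machinery genes stand at the bottom. Other channel, receptor, guidance and adhesion lists stand lower than the top ones. Among them are TRP, chloride and anoctamin channels (5.56%), receptor-type phosphatases (8.33%), ephrins and Eph receptors (10%) and immunoglobulin-type neural adhesion genes (15.6%).

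Some genes differed by degree, with a mean of at least 100 scaled reads in both lines before centring. Zc3hav1, an antiviral zinc finger protein, held 105 and 127 against 1314 and 1315 (3.50 ± 0.19), and Baiap2, Cdk5r2, Ier5, Dennd3 and Apobec3 were the next largest on this side, down to 2.83 ± 0.22 and 2.79 ± 0.19. Lower were Spry2, a feedback inhibitor of growth factor signals, at 588 and 581 against 78.4 and 62.5 (-3.04 ± 0.16), Smoc1, Pde10a, Fzd1, Arl4d and Mmd. Pde10a, a phosphodiesterase, held 1671 and 1862 against 222 and 218 (adjusted p = 1.66e-05 by limma), just under 8-fold. Both Spry2 and Smoc1 were under 100 scaled reads in betaTC3 after centring.

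Chromosomes differed as wholes before centring. DNA copy number was not analysed and the inputs were not used, so copies of a chromosome and signal along it cannot be told apart here. The median log2 change over windows ran from -0.72 on chromosome 11 and -0.59 on chromosome 7 to 0.42 on chromosome 12 and 0.68 on chromosome 14. Without centring the median over all windows was -0.13, and the calls were 3893 higher and 5851 lower in place of 4030 and 4288, while the separating windows were 2086 and 1369 in place of 2114 and 1281. After centring 15.8% to 23.3% of the windows of each chromosome from 1 to 19 and X separated the lines.

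**Figure D5:**
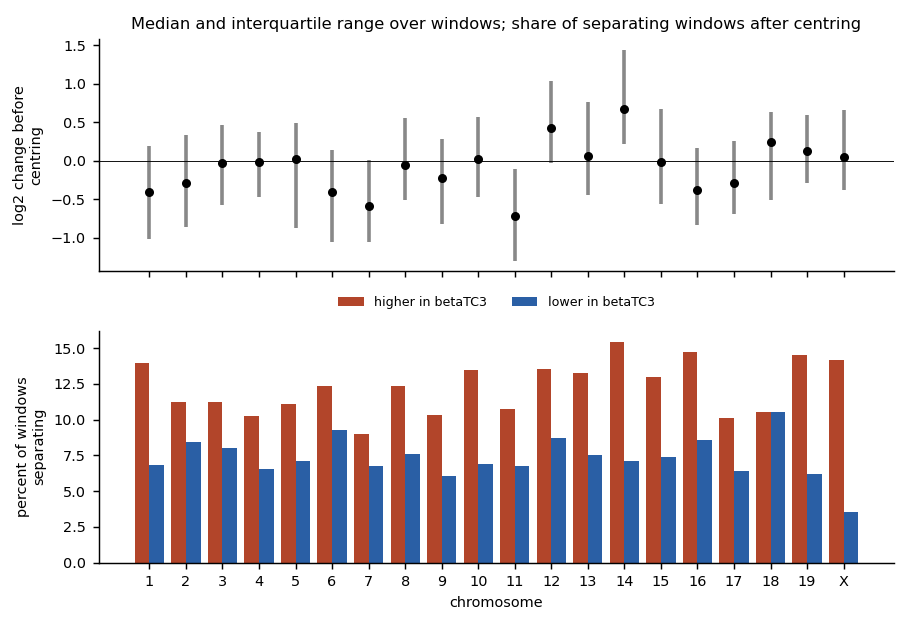
Upper panel, median (point) and interquartile range (bar) of the log2 change of all windows of each chromosome before centring. Lower panel, percent of windows that separated the lines after centring, higher or lower in betaTC3. Chromosomes 14 and 11 are the highest and lowest in the upper panel, at 0.68 and -0.72.

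Centring does not remove shorter stretches, and 12 runs of at least 5 neighbouring windows separated in 1 direction. The longest spans 17 windows on chromosome 11 from 108921161 to 110479924, from Axin2 to Gm11682, all higher in betaTC3. No window of it exceeded a mean of 1.99 scaled reads in the empty-vector libraries, while the betaTC3 means reached 1195 before centring. Gna13, a G protein subunit in the run, held 0 and 0 with the empty vector, 0 and 0 with the knockdown and 1926 and 1925 in betaTC3. Whether the DNA or only the signal is missing from alphaTC1 cannot be told apart here. Without these windows 3378 separated the lines, 2097 of them higher. The next longest run held 8 windows on chromosome 2 from 170154863 to 170337516, from Zfp217 to Bcas1os2, all lower in betaTC3. A run of 5 on chromosome 17 from 30892054 to 31073996 holds 3 windows assigned to Glp1r and 1 to Abcg1, so Glp1r lies in a stretch of separating windows. The empty-vector means of that run went from 0 to 75.5 scaled reads, and whether DNA or only signal differed was not tested.

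Called peaks, which the authors derived from the same reads, divided as the windows did. Of the 2114 windows higher in betaTC3, 1893 (89.5%) overlapped a peak in both betaTC3 lists and none in the empty-vector lists, and of the 1281 lower windows 1046 (81.7%) overlapped a peak in both empty-vector lists and none in those of betaTC3. Of the 9323 windows not called, 90.1% overlapped a peak in all 4 lists. The Smndc1 knockdown libraries are of the same alphaTC1 line and entered the fit only through the shared estimate of the spread. Within 1 kb, both lay below both centred betaTC3 libraries in 927 of the 927 higher windows. Both lay above them in 449 of the 451 lower windows. These windows were chosen for a gap of at least 8-fold from the same line. Near-complete counts were thus set in advance and test nothing. At Glp1r the knockdown libraries held 0 and 0 scaled reads, at Kcnb2 0 and 0, at Mark1 535 and 573 and at Tbx15 275 and 348.

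A few genes carried windows of both directions. Of 1512 genes with at least 2 windows, 25 had separating windows higher and lower in betaTC3. Foxa2, an endoderm factor, had 6 windows, with 1 higher less than 2 kb upstream of its start and 2 lower at 7042 and 16198 bp downstream. Wnt10a had the lower window at 694 bp described above and a higher one at 15297 bp, and Nes (nestin) a higher one at 163 bp and a lower one at 12392 bp. These genes were chosen after their values were seen, and the windows are assigned to the gene by distance and may belong to another.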

How the data were processed

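The window table was deposited by the authors; its signal values are whole reads in a window multiplied by 1 scaling factor per library, read off the values, and the sources used here do not give how the authors made the factors. Dividing by each library's smallest step gave whole reads for 100% of values (tolerance 0.001 of a read). The tools named, per the submitters' processing notes, are MACS2 2.2.7.1, Bowtie2 2.4.1 and Picard 2.19.2, with the build mm10 (GRCm38). The deposited MACS2 peak lists give a score, a fold enrichment and a −log10 q per peak, all the authors' own values, and only −log10 q was used, to filter peaks.

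Windows were reduced to 17641 unique peaks. The change was tested with limma 3.58.1 (R 4.3.3, intensity trend) on log2(scaled reads + 1) over all 6 ChIP libraries, which share 1 estimate of the spread. Before the test, betaTC3 values were divided by their chromosome's median change, or the genome-wide median on sequences with under 50 windows. The Benjamini-Hochberg adjustment ran over all windows. edgeR 4.0.16 on the recovered reads called 5241 windows higher and 5353 lower. On simulated data limma recovered 97% of windows changed by 1 in log2 and 100% of those changed by 3. The simulation gave every library the same spread and changed only windows with a mean of at least 100 scaled reads. It does not show the recovery of weaker windows, or with the wider spread between the betaTC3 replicates. An exact permutation test of 2 libraries against 2 cannot go below p = 0.333 (two-sided), so none was used. Against a line at 0 in both libraries a fold is a lower bound at 3 reads per library, and ratios with few reads carry an exact 95% interval, both for counting error only. The inputs and the knockdown peak lists were not used here.

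Named were the 12 windows of largest change in each direction within 1 kb of a gene start, the 6 largest graded ones, up to 3 per direction in each gene list, cell type markers and run ends. Further members that complete a count were named after their values were seen. Lists were matched by gene symbol, count windows, and take in genes of other kinds, among them Unc50, Agtrap, Secisbp2, the ion channel gene P2rx4, the serotonin transporter gene Slc6a4 and the antisense RNAs Kcnab3os, Kcnq1ot1 and Rbm3os. The lists and the comparison were chosen with earlier results of these data known. RefSeq promoters matched 71.5% of windows within 1 kb, under the 80% needed, so a comparison of promoter sequence between classes is void. Some genes that enter the counts are not reported here by name.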

Additional observations from a re-analysis of the deposited data

How the results depend on the processing

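All 19 alternative fits (other centrings, pseudocounts, filters and tools, fewer libraries) kept the counts of called and separating windows within 1.5 times of those reported, except that a pseudocount of 5 gave 751 separating windows lower in betaTC3 and 6 runs. No chromosome centring shifted the median change to -0.13 and called 3893 higher and 5851 lower. Leaving out 1 library at a time gave 5887 to 9227 called windows (2990 to 4380 higher, 2897 to 4847 lower), 3096 to 3384 separating (1884 to 2111 higher, 1167 to 1319 lower), 1282 to 1376 of them within 1 kb, and 8 to 12 runs. A fold threshold of 4 gave 4449 separating windows, and leaving out the run on chromosome 11, chosen after seeing the data, 3378. Peaks of at least the median −log10 q covered 238 of the higher and 151 of the lower separating windows in one line alone. The gap between the highest and lowest chromosome median was 1.33 over windows of at least 100 scaled reads, 1.37 with a pseudocount of 5, and 1.38 to 1.40 with 1 library left out. With the replicate number as a replicate block, 3801 windows were called higher and 4014 lower and 2114 and 1279 separated; the numbers do not pair the samples, since deviations of same-numbered betaTC3 and empty-vector libraries correlated at 0.085. Of 290 separating windows named by rule, 278 kept direction and call in all 19 fits and 12 lost the call in at least 1. The rule takes the largest changes of each list, so these counts do not describe the other separating windows. Some of those lost their call in some fits. Among them were Kcna4, Kcnt2 and 1 window at Kcnn3 of the potassium channels, and Pcdhb14 and Pcdhb15 of the protocadherins. The window at Mrpl33 changed sign under a running median of 51 windows (0.0607, adjusted p = 0.845 by limma). The cause was not tested. Of 3395 separating windows, 3383 also separated with edgeR, 3359 with DESeq2 and 2226 in every fit. Weak windows limit the folds, since a line at 0 gives only a bound.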
